A study of Mus musculus with 6 samples.

Results

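The 10 genes described here encode protein kinases that drive mitosis, the chromosomal passenger complex, and close partners of both. They were chosen by name from the mouse gene table and all 10 were found, among 24061 genes in all. They are Plk1 and Plk4 of the Polo family, Aurka and Aurkb of the Aurora family, the NIMA-related kinase Nek2, the passenger subunits Incenp, Birc5 (survivin) and Cdca8 (borealin), Cdc20, and Tpx2. Dazl, a germ cell gene that once carried the symbol Tpx2, also fits the naming rule by its former symbol; it had 0 to 12 reads a library, did not pass the filter on low counts, and was not counted among the 10.

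RNA was sequenced from cultured fibroblasts of fibrotic mouse lungs, which the labels call resident cells. All cells, controls included, came from TGF-alpha transgenic animals; no source used here gives the promoter of the transgene or the age of the mice. The cells received a control siRNA in 3 libraries (numbered 1 to 3) or an siRNA to Wt1 (a zinc finger transcription factor) in 3 libraries (numbered 4 to 6), with no untransfected or transgene-free group. Whether the 3 libraries of a group are separate cultures or mice is not stated in the labels. The p-values therefore cover the spread between these samples alone, which may be technical.

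Mitosis is run by a small set of kinases. Plk1 acts in mitotic entry, centrosome maturation and chromosome segregation, Aurora A builds the spindle with its activator Tpx2, and Aurora B works inside the passenger complex, where Incenp is the scaffold and activator and survivin and borealin place the complex on the centromere. Plk4 is different in that it starts centriole duplication, which occurs at the transition from G1 to S phase, while Nek2 dissolves the linker between centrosomes before they separate. Cdc20 activates the anaphase-promoting complex (APC/C), the ubiquitin ligase whose work starts anaphase. Most of these transcripts are made in G2 and mitosis from promoters that carry a cell cycle homology region (CHR), bound through Lin54 of the MuvB complex, and CCAAT boxes bound by NF-Y.

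RefSeq promoters (GRCm38.p6, 250 bases before to 50 after the start) were at hand for 7 of the 10 genes: Plk1, Plk4, Aurka, Nek2, Birc5, Cdca8 and Cdc20. Aurkb, Incenp and Tpx2 had no entry. Both strands were searched for TTTGAA or TTCGAA, the CHR-like letters, and for CCAAT. CHR-like letters were found in 4 of the 7 promoters (Plk1, Aurka, Cdca8 and Cdc20) and in 19.2% of all 32851 promoters of the same length. CCAAT was found in 5 of the 7, the same 4 and Nek2, and in 37.4% of all promoters, and both kinds in 4 of the 7 and in 7.5% of all. The sequences below show the CHR-like letters in their setting and, for contrast, the Plk4 promoter, in which neither was matched. The Birc5 promoter, not printed, had neither as well. The log2 fold changes after Wt1 siRNA, given below, were -0.47 for Plk4 and -1.25 for Birc5. Whether matches go with the size of the fall was not tested. Capitals mark the matched letters. Cdc20 (chr4:118437344-118437463, minus strand) and Plk4 (chr3:40799831-40799950, plus strand) are given as the 120 bases that end just before the start. Plk1 (chr7:122159453-122159482, plus strand) and Aurka (chr2:172370521-172370550, minus strand) are given as 30 bases after the start, around the match.
Cdc20: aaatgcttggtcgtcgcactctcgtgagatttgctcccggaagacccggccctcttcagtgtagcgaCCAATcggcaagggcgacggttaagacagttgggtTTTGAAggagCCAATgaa
Plk4: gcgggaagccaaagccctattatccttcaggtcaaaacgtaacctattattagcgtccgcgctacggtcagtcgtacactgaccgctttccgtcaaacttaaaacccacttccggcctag
Plk1: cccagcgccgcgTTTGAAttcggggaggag
Aurka: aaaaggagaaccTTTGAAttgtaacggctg

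In Cdc20 the CHR-like letters stand at -18 to -13, between CCAAT at -53 to -49 and at -8 to -4, counted from the start as 1. In Plk1 and Aurka they lie after the start, at 31 to 36 and 33 to 38. The Aurka window (chromosome 2, 172370521 to 172370820) stops short of the upstream end of the gene at 172370886. Its start is thus an inner one, and the outer start of Aurka was not searched. For Nek2 the bases before the start used end at 191821472, inside the gene, whose upstream end is at 191821449. The map of motif matches shows the places of the matches for the 7 promoters. A match is only a run of letters; binding was not measured, and its absence in the windows of Plk4 and Birc5 says nothing about which factors act there.

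**Figure D1:**
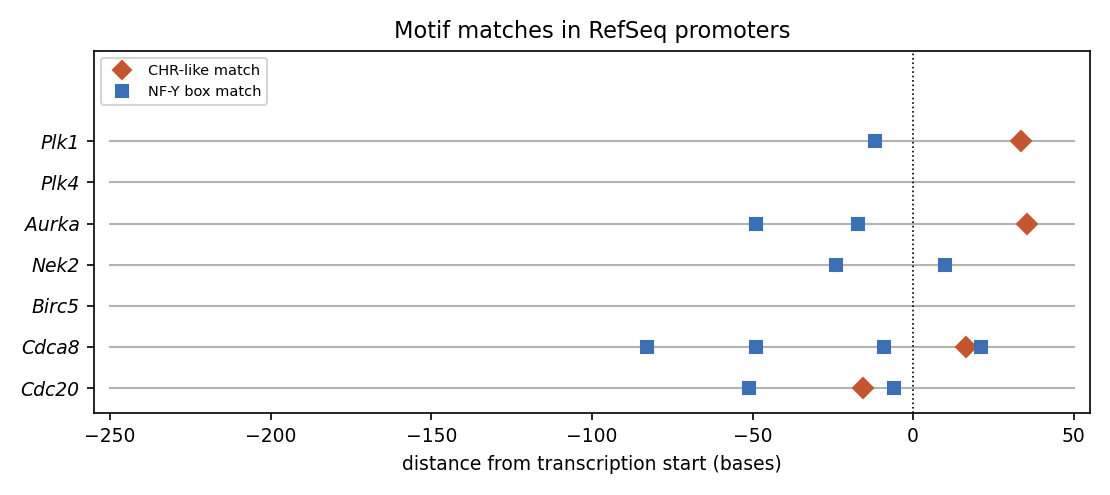
Positions of CHR-like matches (diamonds) and NF-Y box matches (squares) in the 7 RefSeq promoters, in bases from the RefSeq start used (dotted line). For Aurka and Nek2 that start lies inside the gene. Plk1, Aurka, Cdca8 and Cdc20 hold both kinds, Nek2 holds 2 squares only, and the lines of Plk4 and Birc5 are empty.

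Libraries held 26141921 to 32085698 counts. Wt1 itself stood at 48.8, 55.8 and 51.5 CPM (reads scaled to a common library size, with TMM factors) in the controls and 11.4, 8.63 and 7.92 CPM with the Wt1 siRNA, a log2 fold change of -2.48 ± 0.16 (SE; edgeR quasi-likelihood test, adjusted p = 5.98e-06), as the labels have it. Of 14190 genes tested, edgeR with Benjamini-Hochberg adjustment (threshold 0.05) called 1284 higher and 1459 lower, or 855 and 1829 with scaling by library size alone. Without Wt1 siRNA library 4 the counts were 578 and 785, and without library 5 there were 836 higher. Fibroblast markers summed to 28800 to 40200 CPM in the controls and 41300 to 48600 CPM after Wt1 siRNA. Of these 10 markers 5 rose, 2 fell (Pdgfra, and Col3a1, whose call was lost without library 4) and 3 did not pass. Markers of other cell types were low in sum beside those of fibroblasts, but not all were low beside the 10 genes. In the controls the endothelial Cdh5 had 50.8, 67.2 and 43.5 CPM and the mesothelial Lrrn4 71.7, 78.9 and 62 CPM. These lay above the control means of the 10 genes other than Tpx2. The 9 epithelial ones summed to 47.2 to 64.4 and 41.7 to 47.4 CPM (1 lower, 0 higher of 6 tested, Scgb1a1 at 0), and the 7 endothelial ones to 98.6 to 122 and 80.3 to 99.4 CPM (1 lower, 0 higher of 6). The 9 leukocyte ones summed to 20.8 to 29.2 and 22.5 to 29.3 CPM (0 changed of 4, Cd3e at 0). The 6 mesothelial markers, of which Wt1 is one, summed to 174 to 208 and 100 to 126 CPM, with 4 lower and Msln and Krt19 higher; the part of these shifts in the results below was not tested.

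All 10 genes were lower after Wt1 siRNA at an adjusted p below 0.05 (edgeR), where 10.3% of all genes tested were lower and 9.05% higher. In 8 of them the fall was at least 2-fold, against 3.20% of all genes. In all 10 the 3 libraries with Wt1 siRNA lay below the 3 controls, against 18.3% of all genes. The 10 genes and the lists below were chosen with earlier results of these data known. Their contrasts with all genes are therefore not independent support. The median log2 fold change of the 10 was -1.19, beside 0.00 (0.003) for all genes tested, and single values ran from -1.37 for Nek2 to -0.47 for Plk4. Their CPM summed to 298, 289 and 377 in controls 1 to 3 and to 142, 145 and 170 in libraries 4 to 6. In these bulk cultures, fewer dividing cells and less of each RNA per dividing cell cannot be told apart.

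**Figure D2:**
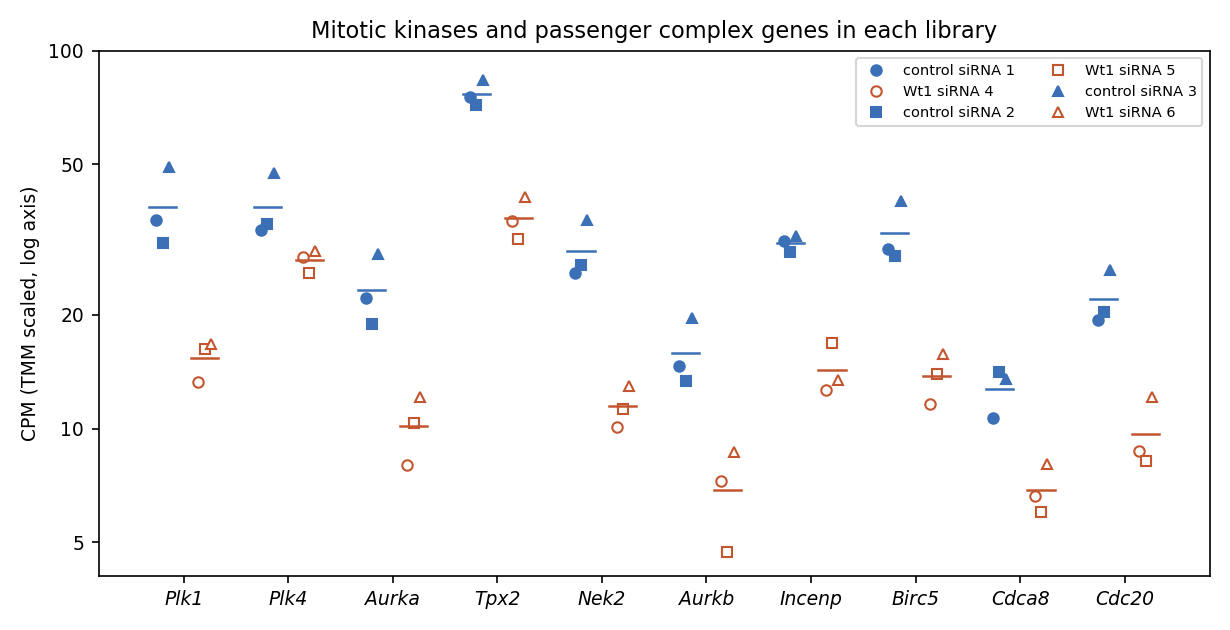
CPM of each gene (log axis) in the 3 control libraries (filled) and the 3 libraries with Wt1 siRNA (open), with horizontal bars at the group means. Open symbols lie below filled ones for all 10 genes, and for Plk4 the gap is the narrowest, 29.5 against 33.5 CPM.

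Plk1, the Polo kinase of mitotic entry and spindle assembly (gene ID 18817, GRCm38 chromosome 7, 122159435 to 122169884), had 35.6, 30.9 and 49.4 CPM in controls 1 to 3 and 13.3, 16.3 and 16.7 CPM in libraries 4 to 6. Control 3 was the highest, and the lowest control was 1.85 times the highest library with Wt1 siRNA. Mean levels stood at 38.6 ± 9.59 CPM in controls and 15.4 ± 1.87 CPM with Wt1 siRNA (SD, n = 3). The difference on the log2 scale was -1.32 ± 0.18 (SE), 2.50-fold lower (edgeR, adjusted p = 4.88e-04). Of the 10 genes it had the widest relative spread in the controls, with an SD of 24.8% of the mean.

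Plk4, the kinase of centriole duplication (gene ID 20873, chromosome 3, 40799951 to 40816883), had 33.5, 34.9 and 47.6 CPM in the controls and 28.5, 25.8 and 29.5 CPM with Wt1 siRNA. The control mean of 38.6 CPM was that of Plk1, but the mean after Wt1 siRNA stayed at 27.9 ± 1.89 CPM. The groups did not overlap, and controls 1 and 2 lay nearer to the libraries with Wt1 siRNA than to control 3. The log2 fold change of -0.47 ± 0.15 (1.38-fold lower) passed with an adjusted p = 0.0497 (edgeR). It passed in 7 of 14 alternatives, with adjusted p from 0.0279 (library size scaling) to 0.216 (without control 3 and Wt1 siRNA library 6 together). With DESeq2 size factors in edgeR it was 0.0507 and with limma-voom 0.0607. Leaving out control 3 gave -0.29 (adjusted p = 0.204), Wt1 siRNA library 4 -0.48 (0.14), library 5 -0.41 (0.151) and library 6 -0.51 (0.0722), all by edgeR.

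Aurka, the Aurora kinase of centrosomes and spindle poles (gene ID 20878, chromosome 2, 172356190 to 172370886), went from 22.1, 18.9 and 29.0 CPM to 8.03, 10.4 and 12.1 CPM. All libraries with Wt1 siRNA were below the lowest control, and the SD was 22.1% of the mean in the controls and 20.2% with Wt1 siRNA. The log2 fold change was -1.19 ± 0.20, or 2.29-fold lower (edgeR, adjusted p = 0.00186). Tpx2, the microtubule-associated protein that activates Aurora A (gene ID 72119, chromosome 2, 152847964 to 152895321), was the most abundant of the 10 in CPM, at 75.3, 71.9 and 83.5 CPM in the controls and 35.3, 31.8 and 40.9 CPM after Wt1 siRNA. Its fall of 1.09 ± 0.13 on the log2 scale had the smallest p of the 10 genes (adjusted p = 1.85e-04, edgeR) and the 136th smallest of all genes tested. Aurka and Tpx2 kept 43.7% and 46.9% of their control level.

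Nek2, the kinase that dissolves the centrosome linker (gene ID 18005, chromosome 1, 191821449 to 191833049), showed the largest fall of the 10. It had 25.8, 27.1 and 35.7 CPM in the controls and 10.1, 11.3 and 13 CPM after Wt1 siRNA, with a gap between the groups of 1.99-fold, the widest of the 10. The log2 fold change was -1.37 ± 0.17, or 2.58-fold lower (edgeR, adjusted p = 2.74e-04). The order of the falls is less sure than their direction, since the SEs of the 8 genes from Nek2 to Tpx2 overlap along the order. Differences between single genes were compared only as the ratios below, by a test that could not pass the threshold with so few libraries.

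The 4 genes of the chromosomal passenger complex all fell, with a median log2 fold change of -1.16. Incenp, its scaffold (gene ID 16319, chromosome 19, 9872295 to 9899489), was the steadiest control, at 31.5, 29.2 and 32.4 CPM, and had 12.7, 16.9 and 13.5 CPM after Wt1 siRNA. Control 3 did not stand out here, and the highest library with Wt1 siRNA was 5 rather than 6. Its log2 fold change was -1.12 ± 0.15, or 2.17-fold lower (edgeR, adjusted p = 4.22e-04).

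Birc5, or survivin, which binds the centromeric histone mark set by haspin (gene ID 11799, chromosome 11, 117849237 to 117855743), went from 29.9, 28.7 and 39.9 CPM to 11.6, 14 and 15.8 CPM. The groups were well apart, and the log2 fold change was -1.25 ± 0.17, or 2.38-fold lower (edgeR, adjusted p = 5.17e-04). Aurkb, the kinase of the complex (gene ID 20877, chromosome 11, 69045624 to 69051664), went from 14.6, 13.4 and 19.7 CPM to 7.25, 4.71 and 8.67 CPM. Library 5, with 130 reads the smallest count of any of the 10 genes, made Aurkb the most variable after Wt1 siRNA (SD 29.2% of the mean). Aurkb had a log2 fold change of -1.21 ± 0.24, or 2.31-fold lower (edgeR, adjusted p = 0.00478).

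Cdca8, or borealin, which joins survivin to Incenp (gene ID 52276, chromosome 4, 124918465 to 124936917), was the least abundant of the 10 in the controls in CPM. It had 10.7, 14.1 and 13.5 CPM in the controls and 6.62, 6.02 and 8.04 CPM after Wt1 siRNA. Control 1 was its lowest control, as it was for Plk4, Nek2 and Cdc20. The log2 fold change of -0.89 ± 0.20, or 1.85-fold lower, was the smallest after that of Plk4 (edgeR, adjusted p = 0.00937). It passed in all 14 alternatives, with adjusted p from 0.00215 to 0.0495.

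Cdc20, the co-activator of the APC/C (gene ID 107995, chromosome 4, 118432901 to 118437343), went from 19.4, 20.3 and 26.3 CPM to 8.74, 8.23 and 12.1 CPM. Control 3 and library 6 were the highest of their groups, and the log2 fold change was -1.18 ± 0.20, or 2.26-fold lower (edgeR, adjusted p = 0.00158). Exons of Cdc20 overlap by 53 bases those of Elovl1, a fatty acid elongase gene on the other strand, and the strand setting of the counting is not given, so reads there cannot be told apart. Elovl1 had a log2 fold change of 0.39 ± 0.11 (67.2 and 88.2 CPM, adjusted p = 0.0265, edgeR), opposite in sign to Cdc20. That call was lost in 6 of 14 alternatives: with library size scaling (0.0648), without control 1, control 3, Wt1 siRNA library 4 or library 5 (up to 0.12), and without control 3 and library 6 together. Plk1 and Nek2 share 156 and 298 exon bases with the predicted antisense genes Gm44985 and Gm38037. Neither antisense gene appeared by that name among the genes tested. The part of these overlaps in the values of Plk1 and Nek2 was therefore not tested.

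**Figure D3:**
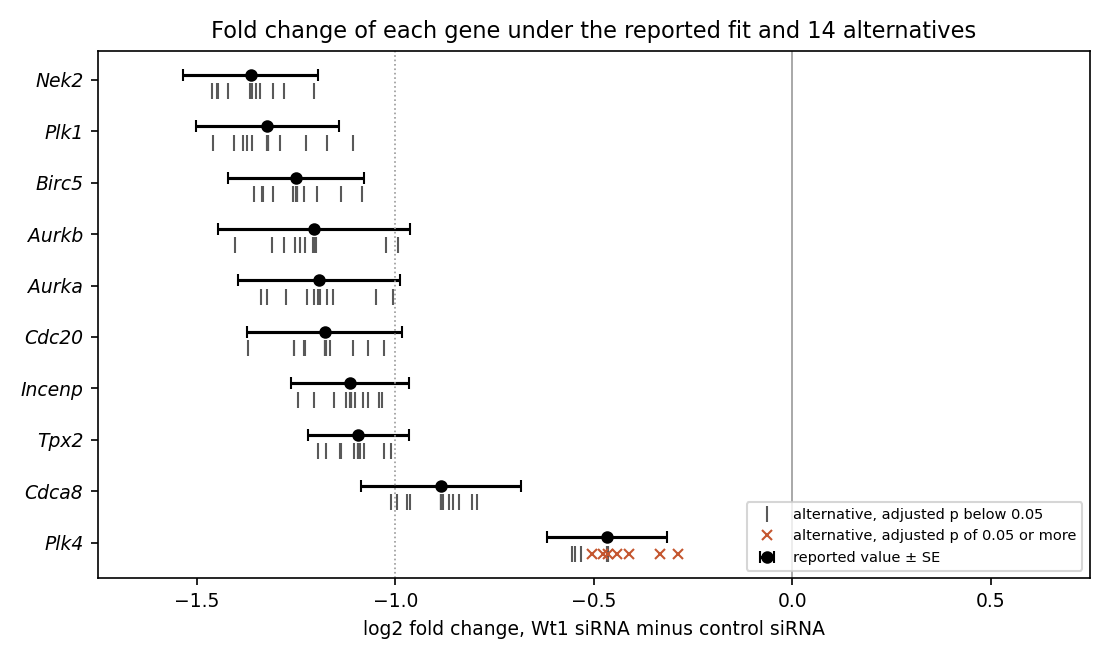
Log2 fold change of each gene, Wt1 siRNA minus control (points, with SE bars), and its values under the 14 alternatives (ticks where the adjusted p is below 0.05, crosses where it is not). The dotted line marks a 2-fold fall; 9 genes have ticks only, and Plk4 alone of these genes has 7 crosses.

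Libraries within a group also differed in the same way across most of these genes. Control 3 was the highest control for 9 of the 10 genes, Cdca8 being the exception, and library 6 was the highest with Wt1 siRNA for 9, Incenp being the exception. The mean over the 10 genes, as a deviation from the group mean, was 0.25 on the log2 scale for control 3 and 0.19 for library 6, against -0.12 and -0.13 for controls 1 and 2 and -0.11 and -0.08 for libraries 4 and 5. These shifts are small beside the median difference of -1.19 between groups. Without control 3 and library 6 together, an alternative added after the values were seen, 9 of the 10 genes were lower and Plk4 was not called.

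Per length of exon (CPM per kb of the union of GENCODE exons), control levels ran in the order Tpx2, Plk1, Cdc20, Aurka, Plk4, Birc5, Incenp, Nek2, Aurkb and Cdca8. The range was 17.6 CPM per kb for Tpx2 to 6.81 for Cdca8, and each gene overlapped the next in the order over the 3 controls. After Wt1 siRNA the order was Tpx2, Plk4, Plk1, Cdc20, Aurka, Incenp, Birc5, Cdca8, Nek2 and Aurkb, from 8.25 to 3.52 CPM per kb, again with each neighbour overlapping the next. Plk4 thus moved from the fifth place to the second, at 11.1 ± 2.23 and 8.03 ± 0.54 CPM per kb (SD, n = 3). These places depend on the lengths used. With the short coding transcript of Birc5 (947 bases) in place of 3402 exon bases, its levels would be 34.7 and 14.6 CPM per kb. That would be the highest in both groups if the other genes kept their union lengths. Other genes also have short coding transcripts, such as one of 582 bases for Plk1, and these were not tried.

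Ratios between genes of the same library do not depend on library scaling. Of the 7 ratios compared, 5 had overlapping groups. Aurkb to Incenp was 0.773, 0.760 and 1.01 per length in the controls and 0.950, 0.464 and 1.07 after Wt1 siRNA, a difference of -0.11 ± 0.40 on the log2 scale (SE; exact permutation test, two-sided, p = 0.9, adjusted p = 1). Birc5 to Incenp differed by -0.12 ± 0.19 (exact p = 0.5, adjusted 0.875) and Cdca8 to Incenp by 0.24 ± 0.27 (exact p = 0.4, adjusted 0.875). Aurka to Aurkb differed by 0.04 ± 0.29 (exact p = 1, adjusted 1) and Tpx2 to Aurka by 0.09 ± 0.20 (exact p = 0.7, adjusted 0.98). These overlaps do not show that the subunits changed equally.

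The other 2 ratios had groups that did not overlap. Plk4 to Plk1 was 0.594, 0.713 and 0.609 per length in the controls and 1.36, 1 and 1.12 after Wt1 siRNA. By raw counts it was 0.939, 1.13 and 0.963 in the controls and 2.15, 1.59 and 1.77 after Wt1 siRNA. Which of the pair is higher thus depends on the exon lengths, but the difference between the groups does not. The difference was 0.85 ± 0.15 on the log2 scale, or 1.81-fold. Cdc20, set against the median of 14 core APC/C subunits per length, was 0.558, 0.650 and 0.734 in the controls and 0.340, 0.323 and 0.431 after Wt1 siRNA, a difference of -0.83 ± 0.17. Each had an exact permutation p = 0.1 (two-sided, adjusted p = 0.35), the smallest that 3 against 3 libraries allow, so neither could pass. Plk4 against the median of the other 9 genes, a ratio added after its small fall was seen, was 0.993, 1.11 and 1.16 in the controls and 2.10, 1.62 and 1.83 after Wt1 siRNA.

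**Figure D4:**
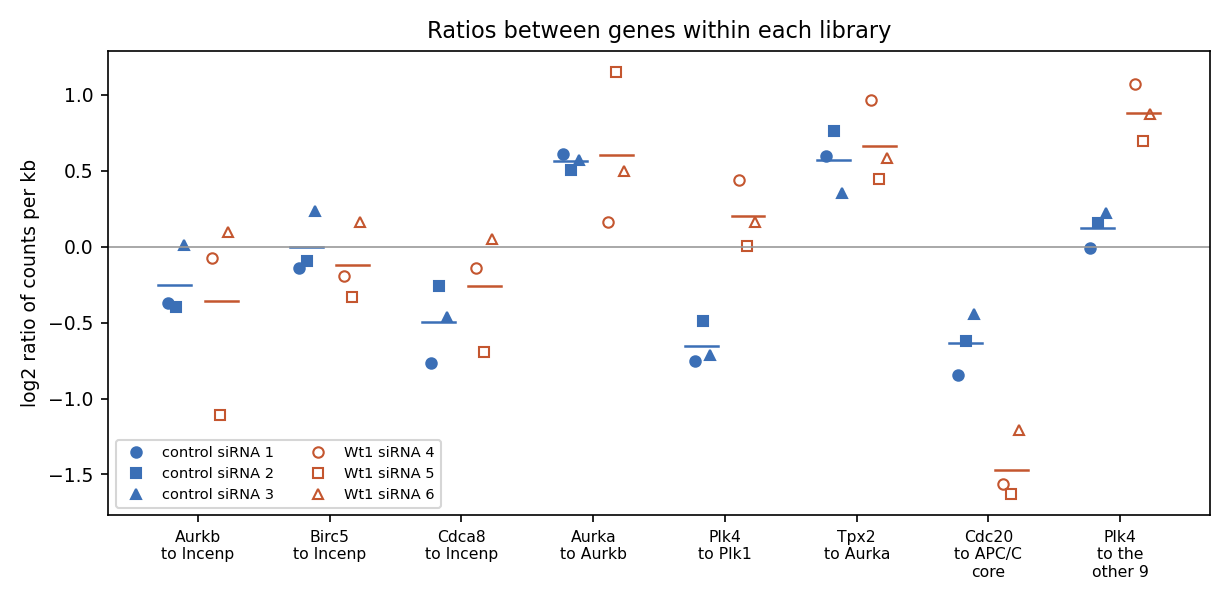
Log2 ratio of counts per kb between named genes in each control library (filled) and each library with Wt1 siRNA (open), with bars at the group means. The groups overlap for the ratios inside the passenger complex and the Aurora ratios, and lie apart for Plk4 to Plk1, Cdc20 to the APC/C core, and Plk4 to the other 9 genes.

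Among 20 other genes of mitotic entry and mitotic kinases, edgeR called 13 lower and 0 higher, and 7 did not pass. None was higher before adjustment either (0 at a raw p under 0.05), and 0 were with DESeq2 or limma-voom. The list had a median log2 fold change of -0.92. For comparison with this list and those below, edgeR called 10.3% of all genes tested lower and 9.05% higher. Cdk1, the kinase at the centre of mitotic entry, fell by 1.15 ± 0.17 on the log2 scale (adjusted p = 7.31e-04), Ccnb1, its cyclin B1 partner, by 1.27 ± 0.19 (adjusted p = 9.61e-04), and Ccnb2, cyclin B2, by 1.06 ± 0.15 (adjusted p = 5.63e-04). Nek7, a Nek kinase found also outside mitosis, was at 178 and 148 CPM and did not pass (-0.26 ± 0.11, adjusted p = 0.133).

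The relatives of the 10 genes that are not part of this mitotic set gave no call in edgeR. Of 11 further Polo, Aurora and Nek genes, 6 were tested, with 0 lower and 0 higher and a median of 0.15. Before adjustment 1 passed as higher and 0 as lower (raw p under 0.05), and after adjustment 1 was higher with DESeq2 or without control 3, and 0 with limma-voom. That gene was Plk2, a stress-induced Polo kinase and far the most abundant of the family, at 384, 335 and 437 CPM in the controls and 500, 459 and 485 CPM after Wt1 siRNA (0.32 ± 0.11, adjusted p = 0.0691). It lay higher in all 3 libraries with Wt1 siRNA, where Plk1 and Plk4 lay lower. Groups lay apart in that upward direction for 2567 of the 14190 genes tested. Plk3 had a log2 fold change of 0.17 ± 0.21 (-0.02 without control 2), and Aurkc, the germ cell Aurora kinase, had 16 reads in control 1 and 0 in the other libraries.

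Of 10 partners that recruit the passenger complex or build the central spindle with it, 9 were lower and 1 higher, with a median of -1.02. Kif23 fell by 1.26 ± 0.16 on the log2 scale (adjusted p = 2.98e-04), Prc1 by 1.06 ± 0.14 (adjusted p = 3.87e-04) and Kif20a by 0.92 ± 0.13 (adjusted p = 7.13e-04); Kif23 and Kif20a are kinesins of the central spindle and Prc1 bundles its microtubules. The gene that rose was Rcc2 (0.55 ± 0.12, adjusted p = 0.00872), a regulator of chromosome condensation with roles outside mitosis, named after its value was seen.

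Of 19 spindle partners of Aurora A and Tpx2, 7 were lower, 1 higher and 11 did not pass, with a median of -0.35. Hmmr, a microtubule-associated hyaluronan receptor that binds Tpx2, had a log2 fold change of -1.28 ± 0.20 (adjusted p = 0.00103), and Tacc3, a substrate of Aurora A, one of -0.997 ± 0.14 (adjusted p = 6.49e-04). Ajuba, a LIM protein that activates Aurora A and also works at cell junctions and in Hippo signalling, rose from 34.7 ± 3.61 to 64.2 ± 5.87 CPM (0.89 ± 0.13, adjusted p = 6.46e-04). Ran, the GTPase that frees Tpx2 from importins, was at 182 and 201 CPM (0.15 ± 0.12) and did not pass. Without Wt1 siRNA library 4, 4 of the list were lower.

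Of 20 genes of the APC/C and its regulators, edgeR called 4 lower and 0 higher (10.3% and 9.05% over all genes tested). The median of the list was -0.21. By raw p under 0.05, by DESeq2 and by limma-voom 0 of the list were higher too. The falls were those of the ubiquitin-conjugating enzyme Ube2c (-1.02 ± 0.17, adjusted p = 0.00132), the checkpoint protein Mad2l1 (-0.87 ± 0.15, adjusted p = 0.00222), the inhibitor Fbxo5 (-1.17 ± 0.26, adjusted p = 0.00797), and the core subunit Cdc27 (-0.54 ± 0.15, adjusted p = 0.0295, with overlapping groups). Cdc27 was above the threshold without control 1, control 3, Wt1 siRNA library 4 or library 5, up to 0.133. Anapc1, the largest subunit, was at 249 and 244 CPM (-0.03 ± 0.10).

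Around Plk4 and Nek2, 4 of 14 genes of centriole duplication and the centrosome linker were lower and 0 higher (10.3% and 9.05% over all genes tested). The median of the list was -0.40. By raw p under 0.05, 1 gene, Cep152, was higher (0.65 ± 0.27, adjusted p = 0.112), and 0 were with DESeq2 or limma-voom after adjustment. Cdk5rap2 and Pcnt, scaffolds of the pericentriolar material, fell by 1.26 ± 0.16 and 0.91 ± 0.15 on the log2 scale (adjusted p = 2.73e-04 and 0.00165). Cenpj, a centriole elongation protein, had -0.96 ± 0.26 (adjusted p = 0.0238), and was above the threshold without control 2, control 3, Wt1 siRNA library 4 or library 6, up to 0.112. Ccp110, which caps centrioles, had -0.75 ± 0.24 (adjusted p = 0.0481), and passed with no single library left out other than Wt1 siRNA library 6 (up to 0.144). The Plk4 substrate Stil had -0.33 ± 0.36 and Sass6, which forms the cartwheel of the new centriole, -0.75 ± 0.29 (adjusted p = 0.584 and 0.0953). Without control 3 Stil had 0.17, and without Wt1 siRNA library 6 Sass6 passed (-1.02, adjusted p = 0.0449). The count of lower genes was 2 without control 2, control 3 or Wt1 siRNA library 4.

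Of 14 genes of phosphatases that oppose these kinases, 3 were higher, 1 lower and 10 did not pass (edgeR), with a median of 0.22. Over all genes tested 9.05% were higher and 10.3% lower. Ppp2cb, a catalytic subunit of PP2A, had 269 and 362 CPM (0.43 ± 0.12, adjusted p = 0.0240) and Ppp2r5a, a B56 subunit, 62.5 and 81.4 CPM (0.38 ± 0.11, adjusted p = 0.0275). The other riser, Cdc14a, had 0.87 ± 0.27 (adjusted p = 0.0383). All 3 of these calls were lost without control 1, Wt1 siRNA library 4 or library 5. Ppp1cb, a catalytic subunit of PP1 and the most abundant of the list not past the threshold, had 522 and 657 CPM with groups apart (0.33 ± 0.11, adjusted p = 0.0567, edgeR). It passed with DESeq2 (0.0234), limma-voom (0.0406) and no filter on low counts (0.0443). Ensa, which inhibits PP2A in mitosis, fell by 0.42 ± 0.10 on the log2 scale (adjusted p = 0.0146), with adjusted p = 0.0569 without control 3 and 0.104 without Wt1 siRNA library 4. In the list, 1 gene was higher without control 2 or with library size scaling, and 0 were without control 1, Wt1 siRNA library 4 or library 5.

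Among 15 regulators that act at promoters of this kind, 3 were lower, 0 higher and 12 did not pass, with a median of -0.29 (edgeR; by raw p under 0.05, DESeq2 or limma-voom 0 were higher too). Foxm1, the activator of G2 and M phase genes, fell by 1.04 ± 0.19 on the log2 scale (adjusted p = 0.00301). Lin54, the MuvB subunit that binds the CHR, had -0.44 ± 0.13 (adjusted p = 0.0392) and Rbl2, the p130 repressor, -0.56 ± 0.16 (adjusted p = 0.0330). Lin54 was above the threshold without control 1, control 3 or any 1 of Wt1 siRNA libraries 4 to 6 (up to 0.155), and Rbl2 without control 1, control 2, library 4 or library 5 (up to 0.122). The count was 1 without control 1, library 4 or library 5. Rbbp4, the histone-binding subunit, was at 123 and 117 CPM (-0.07 ± 0.15).

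**Figure D5:**
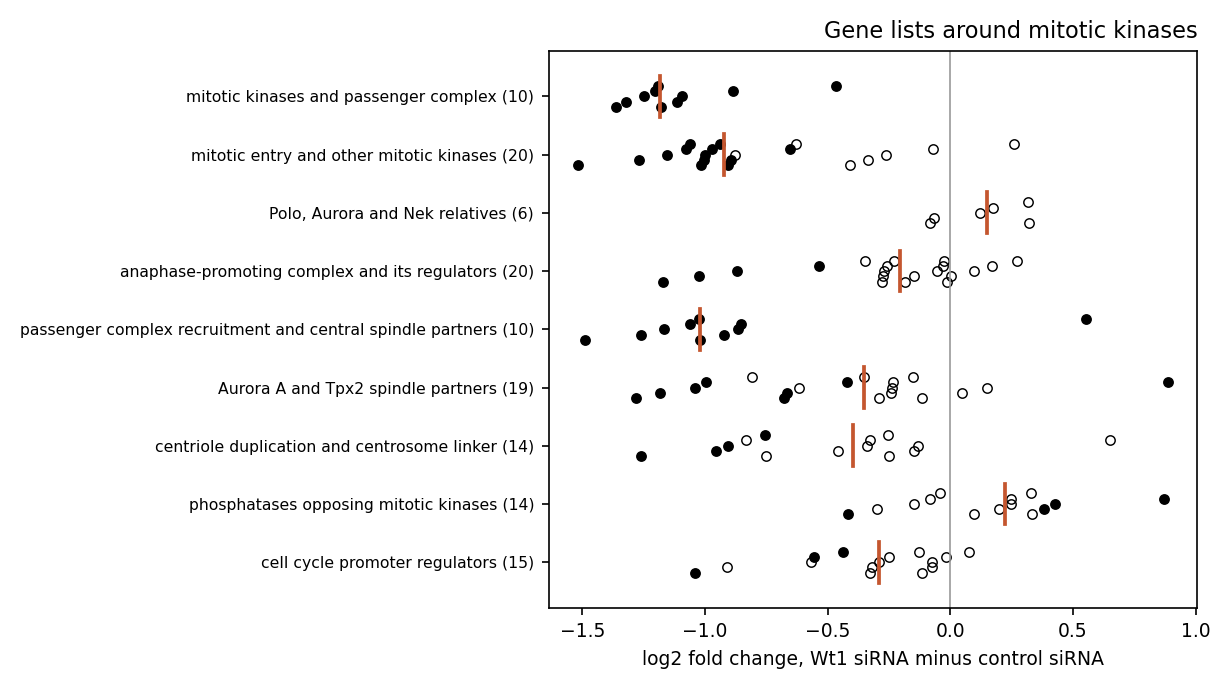
Log2 fold change of each tested gene of the 10 (top row) and of the 8 lists around them (numbers tested in brackets), filled where the adjusted p is below 0.05, with bars at list medians. The top row and the passenger complex partners hold no open circle, whereas the phosphatases and the relatives lie around or above 0.

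Over the 6 libraries, the profile of log2 CPM closest to the mean profile of the 10 genes, by root mean square difference after centring, was that of Top2a, the topoisomerase of mitotic chromosomes (0.0234 on the log2 scale). It was followed by Prc1 (0.0586), Unc5c, a netrin receptor (0.0675), Socs5, a suppressor of cytokine signalling (0.0746), and Ccnb2 (0.0753). Unc5c and Socs5 went from 28.8 to 13 CPM and from 181 to 88.2 CPM, and are not known as mitotic genes. Of the 10 genes Tpx2 was closest to their mean (0.0855) and Plk4 the farthest (0.338).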

How the data were processed

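RNA-seq of 6 libraries was used as 1 deposited table of raw read counts per Entrez gene ID, with no normalization. Per the submitters' processing notes, TopHat, DESeq, bcl2fastq and CASAVA 1.8 were among the tools and mm10 (GRCm38) was the build; the counter, annotation and strand setting were not given in the sources used here. IDs were matched to RefSeq GRCm38.p6 (23976 of 24061); exon lengths are unions of GENCODE M21 basic exons. Groups and numbers came from the sample titles. The test was edgeR 4.0.16 (R 4.3.3) quasi-likelihood with TMM, filterByExpr (14190 genes kept) and Benjamini-Hochberg adjustment over all genes, with threshold 0.05; limma 3.58.1 (voom) and DESeq2 1.42.0 were alternatives. SEs were obtained from the F statistic, as |log2 fold change| over its square root. A count of 3 equals 0.0935 to 0.115 CPM. On simulated counts 28.4%, 67.7% and 86.4% of genes changed 1.5-, 2- and 4-fold were recovered among 14190 genes, and 7.61% of calls were false, above the nominal 5%. Each of the 3 simulations held 200 changed genes, far fewer than the 2743 called in the data. The Benjamini-Hochberg cutoff depends on that share, so these rates need not hold for the reported comparison. Named genes are the 10, Wt1, in each list the 3 smallest p past the threshold and the most abundant gene not past it, and the 5 closest profiles; others named were picked with their values in view. The genes and lists were chosen with earlier results of these data known.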

Additional observations from a re-analysis of the deposited data

How the results depend on the processing

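Apart from Plk4, the 10 genes kept their direction and call in all 14 alternatives (9 genes each); leave-one-out medians of the 10 were -1.35 to -1.03, with 9 to 10 called lower. Plk4 was not called with DESeq2 size factors (-0.465) or limma-voom (-0.44), nor without control 3 and Wt1 siRNA library 6 together (-0.33); with single libraries left out it ran from -0.56 to -0.29. With those 2 libraries out, 688 genes were higher and 867 lower, and the lists gave 4 lower spindle partners, 1 lower promoter regulator, and 1 higher and 0 lower phosphatases. Library size scaling gave 855 higher genes, and 1 higher and 2 lower phosphatases; DESeq2 and limma-voom gave 2 lower phosphatases, and DESeq2 1 higher relative. Leaving out single libraries gave 578 to 1253 higher and 785 to 1406 lower genes, 4 to 9 lower spindle partners, 2 to 4 lower centrosome genes, 1 to 3 lower promoter regulators, 0 to 2 higher and 0 to 1 lower phosphatases, and 0 to 1 higher relatives. Only genes named in the text were followed singly. Of these, signs turned for 5 that did not pass: with single libraries left out Anapc1 ran from -0.065 to 0.032, Cep63 from -0.39 to 0.039, Rbbp4 from -0.228 to 0.03, Stil from -0.679 to 0.174 and Plk3 from -0.02 to 0.351, and without both libraries Anapc1 had 0.017 and Stil 0.081. Fewer samples are tested when libraries are left out; other causes were not tested. No paired analysis was possible because the groups share no replicate numbers. TTTGAA alone was matched in 4 of 7 promoters, as with both spellings.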

Other observations

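Of the 10 genes Plk4 had the largest difference in its share of their summed per-length level. The share was 9.17%, 9.84% and 10.1% in the controls and 16.7%, 14.7% and 14.1% after Wt1 siRNA. The share of Nek2 was 7.61%, 8.26% and 8.21% against 6.39%, 6.92% and 6.69%, and that of Tpx2 overlapped between the groups (15.6% ± 1.24 and 15.5% ± 1.05, SD, n = 3). Shares sum to 100, so a larger share of 1 gene lowers the others; these values were not tested.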
